A study of Mus musculus with 12 samples.

Results

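The genes Gabra2, Gabra3, Gabra4, Gabra5, Gabrb1, Gabrb2 and Gabrd encode subunits of the GABA-A receptor and were measured by RNA-seq in mouse cortex. They were chosen by name and not by a cutoff on measured values, although earlier results of these data were known at that time. All 7 had values among the 55073 gene symbols of the files, and 9 other GABA-A subunit genes of the mouse are given further on for comparison.

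GABA-A receptors are chloride channels opened by the transmitter GABA, and each is a ring of subunits drawn from several families. The usual receptor joins alpha and beta subunits with a gamma subunit, while receptors with a delta subunit lie mostly outside synapses, respond to the low GABA of the extracellular space and in the forebrain often hold alpha4. The alpha subunit sets where a receptor sits and how it responds to benzodiazepines, GABA binds between alpha and beta, and alpha5 is best known from extrasynaptic receptors of the hippocampus.

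The study compared Nestin-Cre mice (Larp1 WT) with Nestin-Cre;Larp1-flox/flox mice (Larp1 KO), so every mouse carried the Cre transgene, which is active in progenitors of neurons and of some glia. The paper describes 3 male mice per genotype on the C57BL/6J strain and RNA from posterior cortex, and their age is not stated in any source used here. The labels list 12 samples, 6 of each genotype, whereas the files used here hold 6 libraries named by mouse number (678, 687, 688, 698, 700 and 703). Which mouse had which genotype is not stated, so each library is given by its number, no difference between the genotypes was tested and no library was placed in either group. Larp1 itself was at 19.96 TPM, a length-corrected measure of transcript abundance, in mouse 678, 18.77 in mouse 687, 6.28 in mouse 688, 6.44 in mouse 698, 17.48 in mouse 700 and 7.32 in mouse 703.

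Libraries held between 34689262 and 44463362 expected counts, the read numbers that the quantification assigned to transcripts. Levels are given in TPM, which corrects for transcript length and can be compared between genes of 1 library. TPM also depends on the other RNAs of a library, and small structural and regulatory RNAs of the class misc_RNA took 36.37% of all TPM in mouse 703 and 47.82% in mouse 700. Comparisons of 1 gene between libraries are therefore also given as CPM, library-scaled counts, with edgeR's TMM scaling, which is set by the bulk of genes and does not correct for length. Excitatory neuron markers such as Slc17a7 (346.5 to 491.9 TPM) and the inhibitory neuron gene Gad1 (64.14 to 93.4 TPM) were high in every library, and the cerebellar granule cell subunit Gabra6 had at most 1 count. In bulk tissue, fewer cells of a type and less RNA per cell cannot be told apart.

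Subunit genes lie in clusters of the genome (coordinates from GENCODE M21 on mm10). Gabra2 (ENSMUSG00000000560.9, chr5:70957597-71095849, minus strand), Gabra4 (ENSMUSG00000029211.11, chr5:71569749-71658308, minus strand) and Gabrb1 (ENSMUSG00000029212.11, chr5:71658113-72149037, plus strand) share a cluster with Gabrg1. Gabra5 (ENSMUSG00000055078.7, chr7:57407672-57510059, minus strand) stands beside Gabrg3. Gabrb2 (ENSMUSG00000007653.12, chr11:42419757-42629028, plus strand) is in a cluster with Gabra6. Gabra3 (ENSMUSG00000031343.13, chrX:72432681-72656848, minus strand) lies between Gabre and Gabrq, and Gabrd (ENSMUSG00000029054.8, chr4:155384980-155398112, minus strand) has no other subunit gene next to it.

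On chromosome 5, Gabra4 and Gabrb1 start head to head. The start of Gabra4-201 lies inside the span of Gabrb1, and exons of these genes cover the same 46 bases on opposite strands, which is 0.756% of the exon bases of Gabra4 and 0.332% of those of Gabrb1. The labels name a directional library kit, but the strand setting used in counting is not stated in any source used here, so reads from those bases could belong to either gene. RefSeq lists 2 start sites for Gabrb1, 1 beside Gabra4 and 1 farther along the plus strand, which is also where the main Gabrb1 transcript of these libraries began. The promoter windows of the 3 genes of this cluster are shown because of this shared arrangement (RefSeq, GRCm38.p6, 250 bases before the start and 50 from the start on, each 5′ to 3′ on the strand of its gene). Capitals mark every match to a GC box, GGGCGG on either strand.
Gabra2 (chr5:71095800-71096099, minus strand): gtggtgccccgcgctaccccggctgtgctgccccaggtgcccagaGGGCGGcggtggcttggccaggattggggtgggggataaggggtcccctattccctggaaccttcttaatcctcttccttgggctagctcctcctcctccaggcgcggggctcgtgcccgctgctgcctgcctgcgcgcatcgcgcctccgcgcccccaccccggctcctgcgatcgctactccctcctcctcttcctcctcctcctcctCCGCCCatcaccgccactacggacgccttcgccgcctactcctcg
Gabra4 (chr5:71658259-71658558, minus strand): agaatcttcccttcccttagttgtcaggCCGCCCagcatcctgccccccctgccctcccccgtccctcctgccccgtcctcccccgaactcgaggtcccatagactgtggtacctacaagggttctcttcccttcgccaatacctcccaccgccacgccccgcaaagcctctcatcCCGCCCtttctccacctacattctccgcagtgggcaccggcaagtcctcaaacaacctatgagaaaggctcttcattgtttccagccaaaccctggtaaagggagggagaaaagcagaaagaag
Gabrb1, start beside Gabra4 (chr5:71657671-71657970, plus strand): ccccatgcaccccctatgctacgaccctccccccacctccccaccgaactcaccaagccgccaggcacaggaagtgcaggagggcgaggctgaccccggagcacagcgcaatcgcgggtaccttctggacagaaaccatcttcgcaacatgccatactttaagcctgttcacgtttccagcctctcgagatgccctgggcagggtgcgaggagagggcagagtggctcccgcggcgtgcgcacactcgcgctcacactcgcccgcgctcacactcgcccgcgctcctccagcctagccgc
Gabrb1, start of the main transcript (chr5:71699682-71699981, plus strand): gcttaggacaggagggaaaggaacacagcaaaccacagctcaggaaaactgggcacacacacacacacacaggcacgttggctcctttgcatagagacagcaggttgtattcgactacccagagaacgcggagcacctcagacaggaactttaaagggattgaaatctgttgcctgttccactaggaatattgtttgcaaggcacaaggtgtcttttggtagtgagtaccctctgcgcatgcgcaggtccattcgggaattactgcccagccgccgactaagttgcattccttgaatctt

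These windows differed in base composition. GC made up 70% of the Gabra2 window, 58.7% of the Gabra4 window, 66% of the Gabrb1 window beside Gabra4 and 50.3% of the window of the main Gabrb1 transcript, against a median of 60.7% over the 13739 windows of detected nuclear protein-coding genes. The Gabra2 window and the Gabrb1 window beside Gabra4 each held 25 CpG dinucleotides, against a median of 20 over the same windows. The GC box matched 2 times in Gabra2, 2 times in Gabra4 and in neither Gabrb1 window, while 61.56% of the windows of detected genes and 35.66% of all 32851 windows hold it. RefSeq windows were found for 6 of the 7 genes, and Gabrd has no entry. Of the other windows, the 1 of Gabrb2 at chr11:42420190-42420489 held the letters TATAAA at -30 relative to its start, and it also held 1 GC box. Its start, at base 42420440, is not that of the main transcript Gabrb2-201, which is annotated to begin at base 42419757. Both Gabra3 windows, which overlap, held the same match to TATAAA on the opposite strand, at -235 relative to 1 start and -123 relative to the other. Those starts, at bases 72656807 and 72656919, also differ from that of the main transcript Gabra3-201, at base 72656186. On either strand, 7.05% of the windows of detected genes and 13.62% of all windows hold these letters. The letters TGACGTCA (1.79% of all windows) and GCGTGGGCG (0.61%) were in no window of the 7 genes.

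All 7 genes were expressed in all 6 libraries, and Gabrb2 had the highest level. Gabrb2, which encodes a beta subunit, was at 47.99 TPM in mouse 678, 48.34 in mouse 687, 47.22 in mouse 688, 51.02 in mouse 698, 41.29 in mouse 700 and 58.07 in mouse 703. By median TPM, Gabrb2 (48.17) was followed by Gabra3 (30.09), Gabra4 (27.87), Gabra5 (20.57), Gabrb1 (15.96), Gabrd (15.84) and Gabra2 (15.54). Gabrb2 was above Gabra3 in 6 of 6 libraries, with a median ratio of 1.65, although the ranges of the 2 genes overlapped. Gabra4 was above Gabra5 in 6 of 6 libraries, and theirs was the only neighbouring pair without overlap. With coding transcripts alone that order turned, as Gabra5 (median 20.57 TPM) was above Gabra4 (median 18.66 TPM) in 5 of 6 libraries with overlapping ranges, and Gabrd and Gabra2 were then the only neighbouring pair without overlap. Gabra5 was also above Gabrb1 in 6 of 6 libraries. Gabra3 and Gabra4 could not be separated, since Gabra3 was higher in only 4 of 6 libraries, and neither could the 3 lowest genes, since Gabrb1 exceeded Gabrd in 3 of 6 libraries and Gabrd exceeded Gabra2 in 3 of 6.

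**Figure D1:**
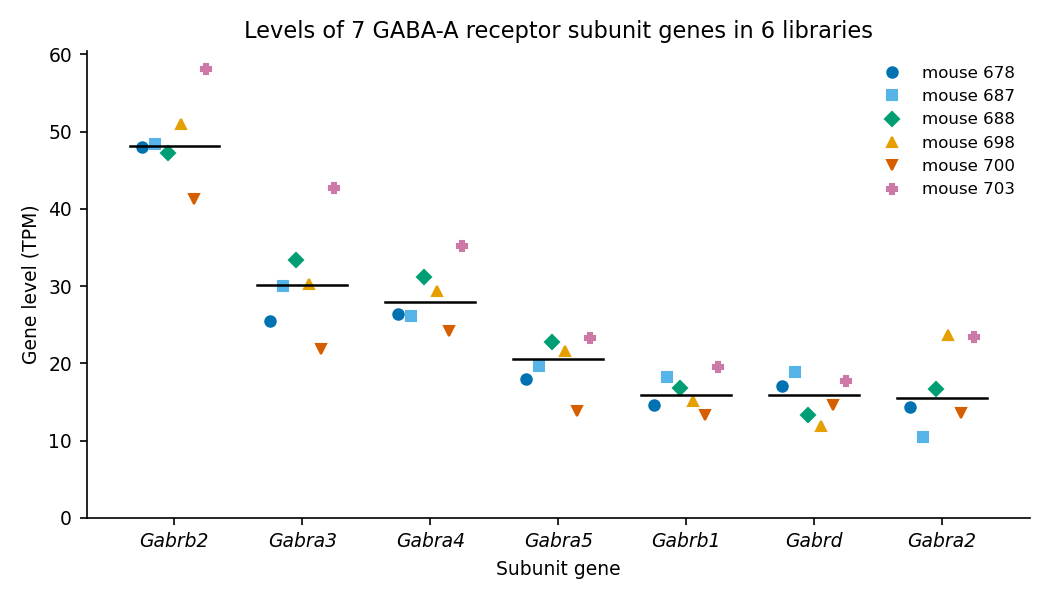
Level of each of the 7 subunit genes in TPM (vertical axis) with 1 symbol per library and a horizontal line at the median of 6. Gabrb2 lies highest at a median of 48.17 TPM, Gabrb1, Gabrd and Gabra2 share medians near 16, and mouse 703 is highest for 5 of the 7 genes.

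Among the alpha subunits, Gabra2 varied most. Gabra2, the alpha subunit of many synapses on the axon initial segment of pyramidal neurons, was at 14.37 TPM in mouse 678, 10.43 in mouse 687, 16.7 in mouse 688, 23.71 in mouse 698, 13.52 in mouse 700 and 23.4 in mouse 703. Mice 698 and 703 were highest and mouse 687 lowest, a 2.27-fold range. On TMM-scaled CPM the values were 55.73, 45.47, 73.26, 95.24, 60.26 and 82.85 in the same order of mice, with the same library highest and the same library lowest and a range of 2.09-fold. Its lowest count was 1998 reads, for which counting error alone is 2.2%, so the range was far wider than counting error.

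Gabra3 encodes an alpha subunit that is prominent in the cortex before birth and persists in deep layers and in monoamine nuclei. It was at 25.48 TPM in mouse 678, 29.97 in mouse 687, 33.36 in mouse 688, 30.21 in mouse 698, 21.8 in mouse 700 and 42.75 in mouse 703. The highest value was in mouse 703 on both scales, and the range narrowed from 1.96-fold in TPM to 1.46-fold in TMM-scaled CPM.

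Gabra4, the usual partner of the delta subunit in the forebrain, was at 26.42 TPM in mouse 678, 26.1 in mouse 687, 31.19 in mouse 688, 29.31 in mouse 698, 24.21 in mouse 700 and 35.17 in mouse 703. Its range was 1.45-fold in TPM and 1.34-fold in CPM, the narrowest of the 4 alpha genes. Gabra5 was at 17.96 TPM in mouse 678, 19.61 in mouse 687, 22.76 in mouse 688, 21.53 in mouse 698, 13.84 in mouse 700 and 23.26 in mouse 703. Mouse 700 was lowest for Gabra5 on both scales, while the highest library was mouse 703 in TPM and mouse 688 in CPM. The exons of Gabra5 share 148 bases, 4.98% of its exon bases, with the antisense gene Gm9962, which had a median of 0.45 TPM.

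The beta subunits carry part of the GABA binding site and differed in their spread. Gabrb1 was at 14.66 TPM in mouse 678, 18.29 in mouse 687, 16.85 in mouse 688, 15.06 in mouse 698, 13.25 in mouse 700 and 19.5 in mouse 703. Its TMM-scaled CPM ran 1.44-fold, from 129.7 in mouse 700 to 187 in mouse 687. Gabrb2 had the narrowest range of the 7 genes in both units, 1.41-fold in TPM and 1.1-fold in CPM, where all libraries lay between 160.3 and 176.7. The ratio of Gabrb2 to Gabrb1 in TPM was 2.64 to 3.39, with a median of 3.05.

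Gabrd encodes the delta subunit. It was at 17.11 TPM in mouse 678, 18.81 in mouse 687, 13.27 in mouse 688, 11.89 in mouse 698, 14.57 in mouse 700 and 17.69 in mouse 703. Mouse 687 was highest and mouse 698 lowest, the reverse of Gabra2 for those mice, and the range was 1.58-fold in TPM and 1.67-fold in CPM. It had the fewest reads of the 7 genes, with 720 to 1491 counts and a counting error of 3.7% at the lowest.

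**Figure D2:**
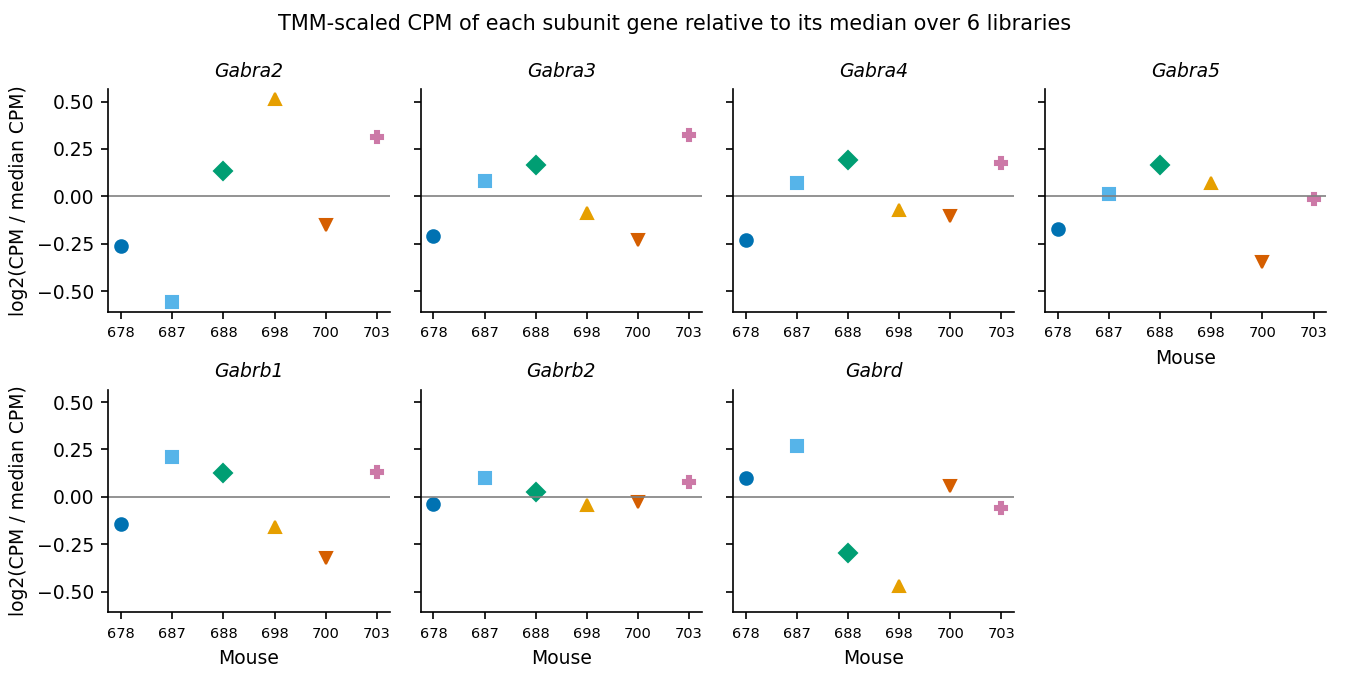
TMM-scaled CPM of each subunit gene in each library, as the log2 ratio to the median of that gene over 6 libraries (vertical axis, 0 at the median; horizontal axis, mouse number). Gabrb2 stays close to its median in all 6 libraries, and Gabra2 spans 45.47 to 95.24 CPM.

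The range of each gene was set beside those of the 15002 genes with at least 10 counts in every library. The median fold range between libraries was 1.31 over all these genes in TMM-scaled CPM and 1.44 over the 7 subunit genes, 6 of which lay above 1.31. Gabrb2 was the exception, and only 4.28% of detected genes had a narrower range. Genes were then ranked by the SD of log2(CPM + 1) over libraries, less the running median SD of genes of like level, and the top 750 were called most variable. Of the 7 genes 1 was among them, Gabra2, with an SD of 0.39 and a larger excess than 97.4% of detected genes, and 5% of all detected genes are called by this rule. Gabrd came next, with a larger excess than 93.3%, and was called most variable as well when mouse 703 was left out. No gene of the 7 had 1 library far from the others by Dixon's ratio on log2(TPM + 1), a criterion that 5.53% of detected genes met.

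**Figure D3:**
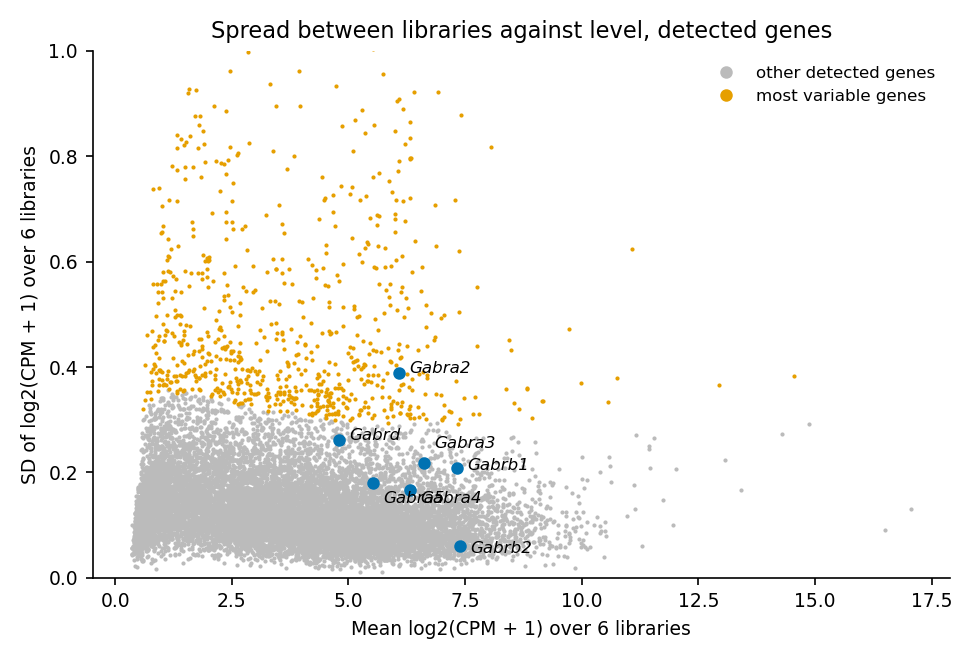
SD of log2(CPM + 1) over the 6 libraries (vertical axis, cut at 1, above which 11 genes lie) against the mean of the same values (horizontal axis) for 15002 detected genes. Gabra2 (SD 0.39) lies among the most variable genes in orange, and Gabrb2 (SD 0.06) is the lowest of the 7 genes in blue.

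Together the 7 genes summed to 164 TPM in mouse 678, 171.6 in mouse 687, 181.4 in mouse 688, 182.7 in mouse 698, 142.5 in mouse 700 and 219.8 in mouse 703. The sum thus ran 1.54-fold in TPM, with mouse 703 highest and mouse 700 lowest, and 1.25-fold in TMM-scaled CPM. These were also the libraries with the lowest and highest misc_RNA share. The make-up of the sum was steadier for some genes than for others. Gabrb2 made up 26% to 29.3% and Gabra4 15.2% to 17.2% of it in every library, while Gabra2 ranged from 6.08% to 13% and Gabrd from 6.51% to 11%.

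Ratios within a library do not depend on how that library was scaled, but they do depend on the unit. Those given here are in TPM, which also rests on how reads were divided among transcripts of different length. The ratio of Gabrd to Gabra4, which encode subunits often found in the same extrasynaptic receptors, was 0.648 in mouse 678, 0.721 in mouse 687, 0.425 in mouse 688, 0.406 in mouse 698, 0.602 in mouse 700 and 0.503 in mouse 703. In TPM the ratio was thus 1.78-fold higher in mouse 687 than in mouse 698. In TMM-scaled CPM it was highest in mouse 678 (30.25 for Gabrd and 67 for Gabra4) and lowest in mouse 688 (23 and 89.83). The ratio of Gabra2 to Gabra4, its neighbour on chromosome 5, ran from 0.4 in mouse 687 to 0.809 in mouse 698. The ratio of Gabrb1 to Gabra4 was 0.514 to 0.555 in 5 libraries and 0.701 in mouse 687. Mouse 687 did not stand apart in this way in TMM-scaled CPM. There it had 187 for Gabrb1 and 82.42 for Gabra4, against 146.6 and 67 in mouse 678, a similar ratio. In TPM, neighbouring genes of the cluster therefore did not keep a fixed ratio.

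The transcripts that made up each level differed between the genes. Gabrd was nearly a single transcript, with 96.2% to 98.2% of its TPM in the coding Gabrd-201, and Gabra3-201 and Gabrb2-201 held a median of 87.1% and 83.4% of their genes. For Gabra5, 3 coding transcripts with different starts shared the level, with medians of 41.4% in Gabra5-203, 30.8% in Gabra5-202 and 26.9% in Gabra5-201.

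Gabra2 has 6 annotated transcripts, of which 1, Gabra2-203, is annotated as protein-coding. This coding transcript held 32.9% of the TPM of Gabra2 in mouse 678, 42.8% in mouse 687, 46.9% in mouse 688, 40.4% in mouse 698, 40.8% in mouse 700 and 41% in mouse 703. Gabra2-204, annotated as a target of nonsense-mediated decay (NMD), held 28.3% to 44.3%, so the coding transcript led in only 3 of 6 libraries. Gabra2-201, a further transcript annotated as an NMD target, ranged from 0.767% in mouse 687 to 19.7% in mouse 678. Counted over the coding transcript alone, Gabra2 had a median of 6.67 TPM and was below Gabrd in 6 of 6 libraries. Transcript shares are estimates by RSEM for overlapping models, and an error for each estimate is not among the values used here.

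Gabra4 also carried a large share annotated as an NMD target, with 30.5% to 36.4% in Gabra4-202 and 45.3% to 64% in the coding Gabra4-201. For Gabrb1 the unit mattered. Gabrb1-201, of 13737 bases, held a median of 72% of its TPM and 98.2% of its counts, the rest belonging to Gabrb1-202, a model of 799 bases that starts beside Gabra4. Gabrb1 accordingly had more counts than Gabra4 in every library, 5089 to 8219 against 2642 to 3659, but a lower TPM.

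**Figure D4:**
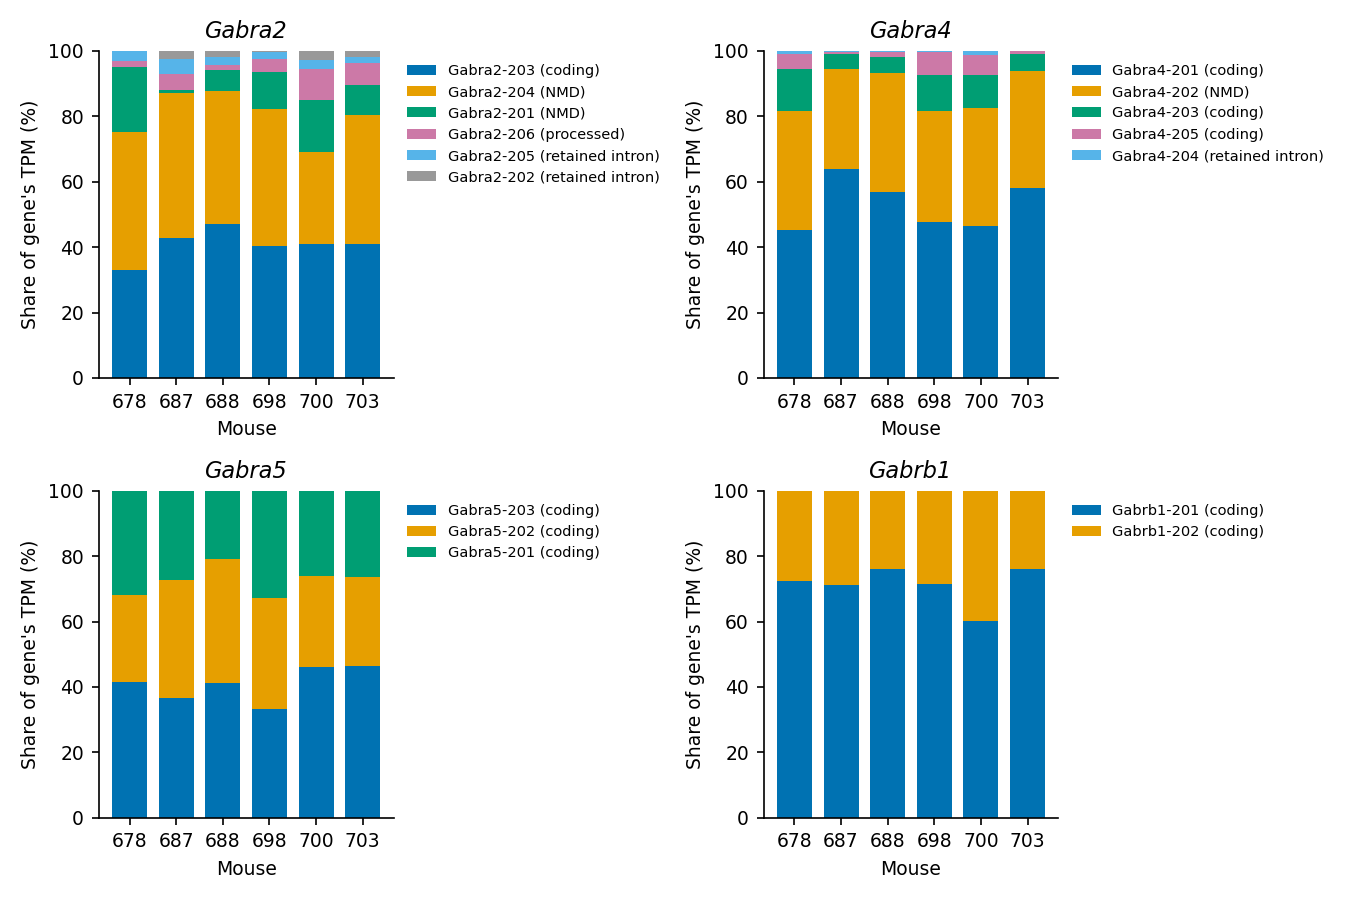
Share of the TPM of each gene held by each annotated transcript (vertical axis, percent) in each library (horizontal axis, mouse number) for Gabra2, Gabra4, Gabra5 and Gabrb1, with the annotated class in brackets. The coding Gabra2-203 holds 32.9% to 46.9% of Gabra2, and Gabrb1-201 holds 60.2% to 76.1% of Gabrb1.

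Larp1 binds mRNAs that begin with a terminal oligopyrimidine (TOP) motif, a C at the cap followed by a run of C and T (U in the RNA). The first 12 bases of the leading transcript of each gene are shown for this reason (GENCODE M21 transcript models, 5′ to 3′), with the opening run of C and T in capitals.
Gabra2-203: CTCCTCCgccca
Gabra3-201: gagaggagaaga
Gabra4-201: attgtttccagc
Gabra5-203: gcctaggcagag
Gabrb1-201: attcgggaatta
Gabrb2-201: atgaaatgagtc
Gabrd-201: ggggcaggctcg
Of the 7 transcripts, 1 began with a C and at least 4 further pyrimidines, Gabra2-203, with a run of 7 whose last bases open the second GC box capitalised in its promoter window. The other 6 began with a purine. The same opening was found in 320 of the 13618 leading transcripts of detected nuclear protein-coding genes, or 2.35%. Gabra2-203 held a median of 40.9% of the TPM of Gabra2, and Gabra2-204 held 41.2%. Gabra2-204 is annotated to begin at base 71095809 and Gabra2-203 at base 71095849, and the first bases of Gabra2-204 are not shown. Annotated starts are not measured starts, and whether the cap of Gabra2 lies at the start of Gabra2-203 was not tested.

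Of the other GABA-A subunit genes, 9 are given for comparison. Each of the 7 genes was above all 9 of them in every library. Among the gamma genes, Gabrg1 was at 2.59 to 5.57 TPM and Gabrg3 at 2.96 to 3.87 TPM. Gabrd, which encodes the subunit that takes the place of gamma in extrasynaptic receptors, was thus above Gabrg1 and Gabrg3 in every library. Of the 9 genes, 6 did not reach 10 counts in every library, among them Gabrp, which was at 0 counts in all 6 libraries. Gabrq, the X-linked neighbour of Gabra3, was at 0.12 to 0.23 TPM in 5 libraries and 1.37 in mouse 703. Mouse 703 was highest in TPM for 5 of the 7 genes, Gabra3 among them. In CPM, Gabrq ran 9.44-fold and Gabra3 1.46-fold.

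**Figure D5:**
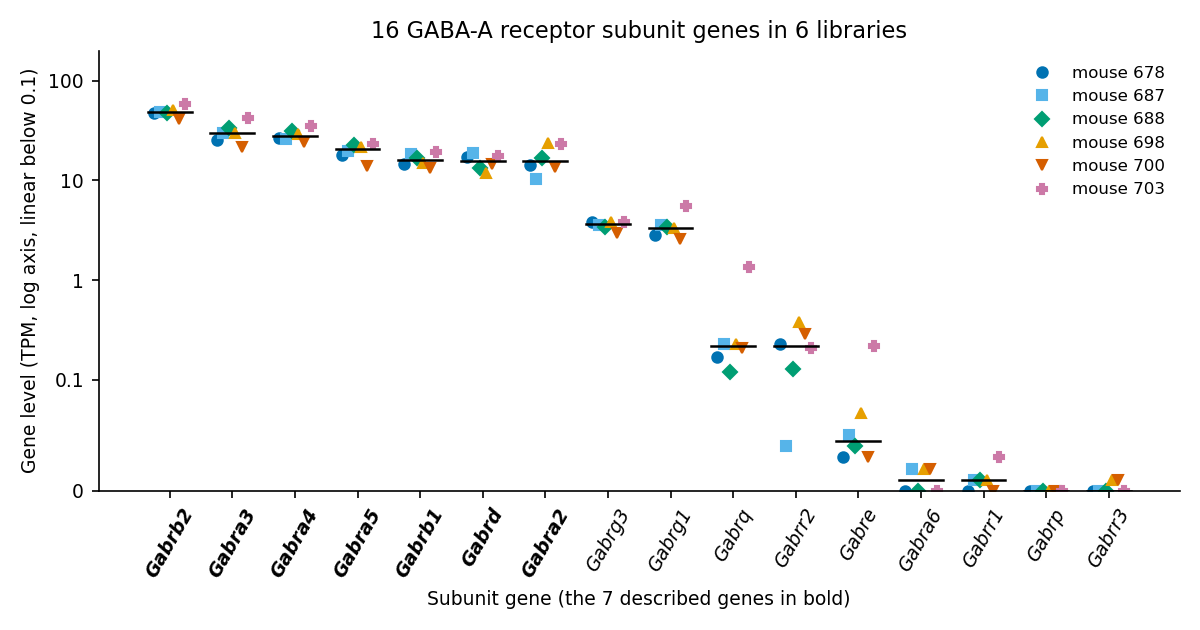
Levels of 16 GABA-A receptor subunit genes in TPM (vertical axis, logarithmic above 0.1 and linear below), with 1 symbol per library, a line at the median and the 7 described genes in bold. The 7 genes fill the range from 10.43 to 58.07 TPM, and the other 9 lie below it.

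Genes that act with these receptors were examined next. None of the 14 genes for receptor assembly, trafficking and anchoring was among the most variable. That call takes 5% of all detected genes, so none or 1 in a list this short does not set it apart. The median range of the 14 genes in CPM was 1.16-fold, against 1.31-fold over all detected genes. Gphn, which encodes the scaffold gephyrin beneath inhibitory synapses, was at 10.38 to 15.57 TPM. Lhfpl4, whose product joins receptors to the adhesion protein encoded by Nlgn2, was at 18.05 to 26.33 TPM, and Shisa7, an auxiliary subunit gene, had the widest CPM range of the 14 at 1.45-fold. Of 8 genes for GABA synthesis, transport and breakdown, 1 was most variable, Slc6a13, a transporter of the meninges, at 2.42 to 4.85 TPM. The neuronal chloride exporter Slc12a5, which sets the driving force of these channels, was at 102.6 to 136.3 TPM and ran 1.04-fold in CPM. The other chloride transport genes ran wider, Slc12a2 1.41-fold and Clcn2 1.43-fold, both above the 1.31-fold of all detected genes.

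Marker genes of other regions and cells also moved between libraries. Of 6 striatal markers, 5 were most variable, a call that takes 5% of all detected genes. The 6 markers summed to 93.32 CPM in mouse 678, 175.3 in mouse 687 and 133.3 in mouse 688. They summed to 88.59 in mouse 698, 94.34 in mouse 700 and 138.8 in mouse 703. Mouse 687, with the highest striatal sum, had the lowest Gabra2 and the highest Gabrd, but mouse 703, with the next highest, had the second highest Gabra2. Of 6 oligodendrocyte markers, 5 were most variable, with summed CPM from 921.9 in mouse 703 to 1596 in mouse 678. Of 6 hippocampal markers, 2 were most variable, with a summed CPM from 37.98 in mouse 703 to 59.3 in mouse 698. Mouse 698 also had the highest Gabra2, but mouse 703, with the lowest hippocampal sum, had the second highest. Mouse 687, with the second highest hippocampal sum (49.91), had the lowest Gabra2. Inhibitory neuron markers summed to 448.9 to 552.7 CPM and excitatory neuron markers to 3563 to 4364. Each of these lists held 1 most variable gene, the inhibitory marker Pvalb (2.66-fold in CPM) and the excitatory marker Fezf2 (2.39-fold). Of 6 thalamic markers, 2 were most variable, Slc17a6 (2.19-fold) and Ramp3 (2.4-fold). Astrocyte markers summed to 4207 to 5083 CPM, microglial markers to 207.2 to 237.5, endothelial markers to 49.1 to 71.87, thalamic markers to 40.19 to 58.75 and cerebellar markers to 20.65 to 25.01. The cerebellar markers were not alike, as Gabra6 and Pcp2 had at most 1 count in each library and Cbln3 had 9 to 16. Zic1 (196 to 307 counts), Zic2 (223 to 346) and Car8 (296 to 420) were detected in every library. Neither the part of tissue composition nor that of the Larp1 genotype in the ranges of Gabra2 and Gabrd was tested.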

How the data were processed

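RNA-seq files of 6 numbered mice were used. The study's methods and the submitters' processing notes name cutadapt for trimming, STAR for alignment to mm10 and RSEM for quantification. Tool versions are not stated there. The authors deposited expected counts per transcript, not normalized, and the authors deposited TPM scaled over all listed transcripts. The labels name TRIzol and a directional kit, whereas the sequencing methods name RNEasy columns and another version of the kit. The 12 value columns used were matched to cortex alone, an inference from the labels, and 0 to a genotype. A further 18 value columns were not used.

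Transcripts were matched to GENCODE M21 without version (99.36%), TPM and counts were summed per gene, and summed counts were rounded. The 910 unmatched transcripts held 0.2465% to 0.2716% of counts. The median library held 40566108 counts, and no pair of libraries agreed within sampling noise (mean chi-square per gene 14.8 to 67.4). Counts were scaled by TMM in edgeR 4.0.16 (R 4.3.3), with DESeq2 1.42.0 size factors as an alternative. Variability was ranked on log2(CPM + 1) for 15002 genes with at least 10 counts in every library, against a running median of 501 genes, with the top 5% called. Dixon's limit for 6 values is 0.625. The call was also run on simulated counts, the outcome of which is not given here. With no genotype per library, no test between groups, no group mean and no p-value were computed, and the planned edgeR comparison was not run.

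The 7 genes and all lists were chosen with earlier results of these data known. Genes named were the 7, other subunit genes, examples from each list, and the most alike gene by Pearson's r. Names chosen by their values include Gabrq, Gad2, Slc6a13, Shisa7, Clcn2, Kctd12, Pvalb, Fezf2, Slc17a6, Ramp3 and the most alike genes. Some genes of the lists are not reported here. Promoters came from RefSeq (GRCm38.p6) and first bases from GENCODE M21. Alternatives comprised other scalings, filters, pseudocounts, coding transcripts alone and leaving out each library. Counting errors cover sampling of reads only.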

Additional observations from a re-analysis of the deposited data

Results flagged for a closer look

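Among the genes reported here that act with or beside the 7 subunit genes, 2 had a single library far from the other 5. The measure was Dixon's ratio on log2(TPM + 1), and each time the library was mouse 703. Chance alone would mark about 1 in 20 groups, and 5.53% of detected genes were marked. The lists of other subunit, receptor assembly, GABA synthesis, chloride transport and GABA-B genes held 6, 14, 8, 3 and 4 detected genes. Not all of those genes are reported here. The 2 genes are therefore not read as a trait of mouse 703 or of GABA genes. Gabrq, an X-linked subunit gene, was at 1.37 TPM in mouse 703 and at most 0.23 in the others, or 153 counts against a lowest of 17. Gad2, a GABA-synthesising enzyme gene, was at 28.26 TPM in mouse 703 and 16.15 to 19.69 in the others. The range of Gad2 in TMM-scaled CPM was 1.36-fold, and that of Gabrq was 9.44-fold. Mouse 703 also had the highest share of TPM in nuclear protein-coding genes, 28.82% against 22.67% to 26.07% in the others, and the part of that share in these values was not tested.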

How the results depend on the processing

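No paired analysis was possible because no library could be tied to a genotype or a replicate number, and the comparison of Larp1 KO with Larp1 WT, with its alternatives, was not run. Rescaling TPM to nuclear protein-coding genes raised the summed level of the 7 genes to 707.5, by construction, and narrowed its range from 1.54-fold to 1.21-fold. That range was 1.25-fold in TMM-scaled CPM, 1.26-fold with DESeq2 size factors and 1.28-fold to 1.54-fold with each library left out, at 1.34 without mouse 700 and 1.28 without mouse 703. The number of the 7 genes among the most variable rose from 1 to 2, with Gabrd joining Gabra2, when genes with at least 1 count in any library were compared, and was 1 to 2 with each library left out, the 2 coming without mouse 703. Gabra2 was called in each of these alternatives. Rescaled TPM gave 2 neighbouring pairs without overlap, Gabrb2 with Gabra3 and Gabra4 with Gabra5, and placed Gabra2 above Gabrb1 and Gabrd. Counting coding transcripts alone moved the level of 2 genes, Gabra2 to 6.675 and Gabra4 to 18.66 TPM, which placed Gabra5 above Gabra4. By gene, the range moved by more than its own spread in 5 of 7 genes under TMM-scaled CPM. No gene of the 7 had a library far from the others in any unit tried. The 6 libraries limit precision more than depth does, since counting error at the lowest count was 1.3% to 3.7%.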

Other observations

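Metabotropic GABA-B receptor genes were also measured. Gabbr1 was at 155.5 to 195.9 TPM and Gabbr2 at 65.72 to 90.43 TPM, so Gabbr1 was above each of the 7 GABA-A subunit genes in every library. Their auxiliary subunit gene Kctd12 was at 7.39 to 14.08 TPM and Kctd16 at 24.55 to 31.93 TPM. None of these 4 genes was among the most variable, a call that takes 5% of all detected genes. The plasma membrane GABA transporter gene Slc6a11 (22.97 to 35.78 TPM) had a CPM range of 1.23-fold.

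For each of the 7 genes, the nuclear protein-coding gene whose log2(CPM + 1) followed it most closely over the 6 libraries was found among 13611 genes. Gabra2 was most like Zfp90 (Pearson's r = 0.995), Gabra3 was most like Kpna3 (0.998) and Gabra4 was most like B3gat1 (0.994). Gabra5 was most like B3gnt5 (0.994) and Gabrb1 was most like Gmfb (0.997). Gabrb2 was most like Hnrnpc (0.993) and Gabrd was most like Chst7 (0.993). Each r describes 6 points that share libraries and scaling, and 40 to 211 genes reached 0.95 for each of the 7, so the first of them carries little weight. Slc4a7, Fam102b, Scamp1, Sesn3 and Tbpl1 followed the sum of the 7 genes most closely.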
